A study of Arabidopsis thaliana with 48 samples.

Results

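The ends described here are those of pre-18S rRNA molecules in seedlings of Arabidopsis. In each, the 3′ end was counted between the A1 and A2 sites and with a nontemplated tail. They were chosen by position and tail length alone: a 3′ end from 14 to 20 nt downstream of the D site (+14 to +20), and a tail of 1 to 10 nt. That gives 7 of the 30 counted end positions, and 70 of the 330 combinations of position and tail length, in each of 48 libraries. The counts came from 18S-ENDseq, in which rRNA is circularised by ligation and copied across the junction of its ends, so that both the last templated base and any bases added after it are read from the same molecule.

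Seedlings were taken at 18 days, from 4 genotypes, and each genotype was sampled in 3 fractions with 4 libraries apiece, which makes 12 groups. hot3-2 carries a T-DNA insertion in HOT3, the gene for the translation initiation factor eIF5B1. The combined mutant hot3-2 dcl2 dcl4 also lacks DCL2 and DCL4, Dicer-like enzymes that cut double-stranded RNA into small interfering RNAs, and dcl2 dcl4 lacks these with HOT3 intact. The control was the wild type (WT) Col-0. The fractions were the total extract before the gradient, the nonpolysome (NP) part of a sucrose gradient and its polysome (P) part. Whole seedlings were used, and every group grew under the same cycle of light and dark. Since only rRNA ends were counted, neither the loss of HOT3, DCL2 or DCL4 transcripts nor the tissue could be checked in these counts, and fewer cells of a kind cannot be told apart from less rRNA per cell.

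Mature 18S rRNA is cut out of a long transcript that also holds the spacers. What remains of the internal transcribed spacer 1 (ITS1) after the A2 cut is removed in the cytoplasm, and the last cut, at the D site, leaves the mature 3′ end. In yeast, eIF5B takes part in a late test of the new small subunit, in which it joins a large subunit around the time of that cut. Nontemplated tails are short runs of bases added to a 3′ end by nucleotidyltransferases, and in yeast nuclei the addition of adenosines to unfinished rRNA is a step towards its degradation by the exosome.

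The stretch of ITS1 that holds these ends is shown because the base at each position, and the base that would come next, decide what an aligner can call a tail. The 18S rRNA genes AT2G01010 (chr2:3706-5513) and AT3G41768 (chr3:14197677-14199484), both on the plus strand of TAIR10.1 (RefSeq), are followed by the same 24 bases, with +14 to +20 in capitals.
AT2G01010 and AT3G41768, ITS1 from +1: tcgatacctgtccAAAACAGaacg
The capitals lie at chr2:5527-5533 and chr3:14199498-14199504, in ITS1, outside the mature 18S sequence. The ends at +14, +15, +16 and +17 fall on a run of A, +18 on C, +19 on A and +20 on G. After +14, +15, +16, +18 and +20 the next template base is A. A tail that begins with A can be read there as template and its end be counted further downstream. After +17 the next base is C and after +19 it is G. The next base is A after +13 too, so that an A1 end there with a tail of A can be counted among the members. The part that this plays in the counts at the neighbouring positions was not tested. The bases of the tails and the rDNA copy of each read were not used here.

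The libraries held 1815545 to 6468532 counted reads, of which 1342007 to 6103144 were untailed reads at the D site, the mature end against which all levels are given. The members received 401 to 59938 tailed reads (median 3707), and 11.9 to 26.2% of all tailed reads from +1 to +22. The Wilson 95% interval of their tailed share had a half-width of 0.293 to 2.73 percentage points, which covers counting error only, since the reads are PCR products without molecular identifiers.

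A single position held most of these reads. In every one of the 48 libraries +17, the last A of the run, had the most tailed reads among the members, with 69.5 to 76.0% of their sum (median 72.9%). +16 came next in 47 libraries and +15 in 1, and +18 had the fewest in all 48. Tails were short: 77.6 to 87.0% of the members' tailed reads had 1 to 4 added nt, and the mean tail was 2.80 to 3.66 nt long (median 3.22 nt).

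Libraries of the same replicate number stood together. Replicates 3 and 4 both had a higher tailed share than replicates 1 and 2, the share being tailed reads over all reads that ended at +14 to +20. This held in 12 of 12 groups, by 4.41 to 8.13 percentage points (median 6.97). Their mean tail was longer in 11 of 12 groups, by a median of 0.361 nt over the 12 groups, and their percentage of 10 nt tails was higher in 12 of 12, by a median of 2.59 points. The level of tailed reads was higher in both of them in 9 of 12 groups. No label names a batch, and each number holds every genotype and fraction, so that results are given below within the numbers as well.

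**Figure D1:**
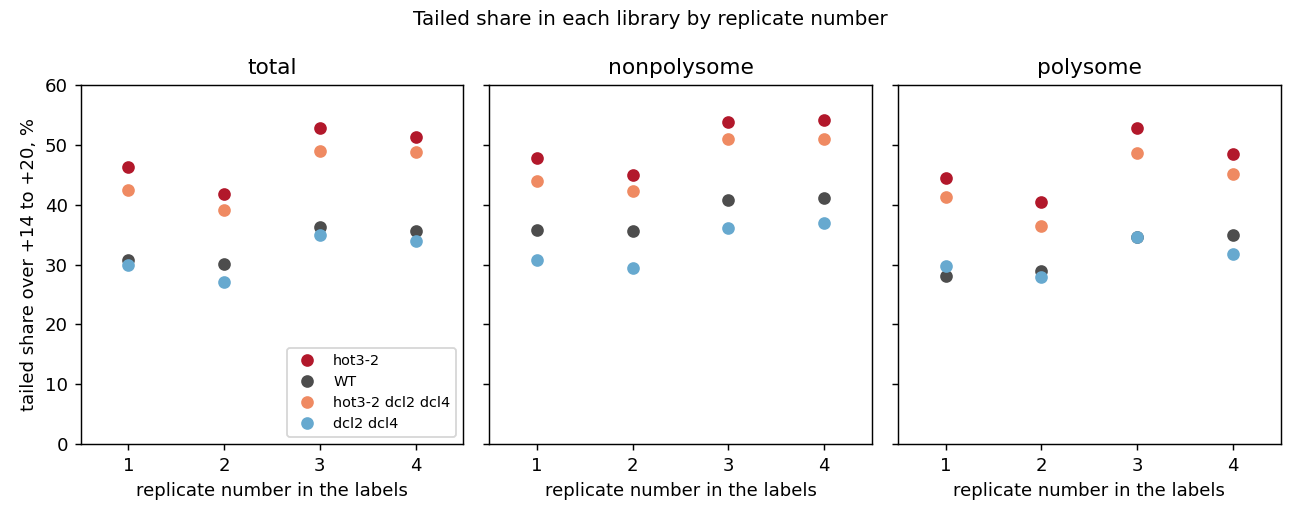
Tailed share over +14 to +20 (y axis, % of all reads ending there) in each library against its replicate number (x axis), for the genotypes in each fraction. In each of the 12 groups the libraries numbered 3 and 4 lie above those numbered 1 and 2, and hot3-2 lies above WT at every number.

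The first question was how loss of HOT3 bears on the level of these ends. Tailed ends were higher in hot3-2 than in WT at each of the 7 positions from +14 to +20 and in each of the 3 fractions. Summed over the positions, tailed reads in the total extract were 0.642, 0.545, 1.00 and 0.930% of the D-site reads in the hot3-2 libraries, against 0.0481, 0.0492, 0.0643 and 0.0662% in the WT libraries. The hot3-2 libraries all lay far above the WT ones, and in both genotypes replicates 3 and 4 were the higher. The mean was 0.780% ± 0.221 in hot3-2 total and 0.0569% ± 0.00964 in WT total (SD, n = 4 each), a ratio of 13.7.

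In the NP fraction, which holds ribosomal subunits not engaged in translation, the sum was 1.89, 1.28, 2.74 and 2.28% in hot3-2, against 0.137, 0.0742, 0.191 and 0.108% in WT. The 2 genotypes were again apart, and replicate 2 was the lowest in both. The means were 2.05% ± 0.619 in hot3-2 and 0.127% ± 0.0494 in WT, a ratio of 16.1. In the P fraction, of ribosomes on messages, the sum was 0.154, 0.161, 0.240 and 0.255% in hot3-2, against 0.0141, 0.0230, 0.0169 and 0.0280% in WT. Here too no library of one genotype reached the other, with means of 0.203% ± 0.0524 in hot3-2 and 0.0205% ± 0.00623 in WT and a ratio of 9.89. Within replicates 1 and 2, and within replicates 3 and 4, the log2 ratio of hot3-2 over WT was 3.61 and 3.89 in total, 3.91 and 4.07 in NP, and 3.09 and 3.47 in P.

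**Figure D2:**
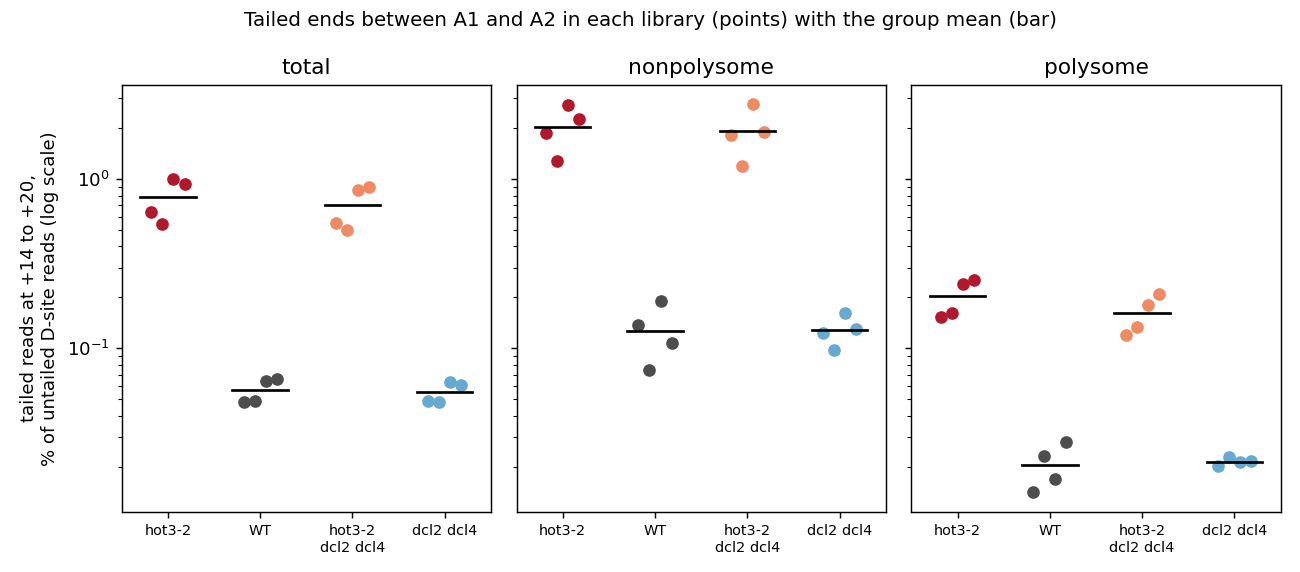
Tailed reads at +14 to +20 in % of untailed D-site reads (y axis, log scale) for each library (points) with the group mean (bar), by genotype and fraction. The hot3-2 and hot3-2 dcl2 dcl4 libraries (0.119 to 2.77%) lie above the dcl2 dcl4 and WT libraries of the same fraction (0.0141 to 0.191%).

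Position +17 carried most of this difference in reads. In the total extract its tailed reads were 0.465, 0.398, 0.705 and 0.658% of the D-site reads in hot3-2, against 0.0350, 0.0361, 0.0456 and 0.0469% in WT. In NP they were 1.43, 0.968, 2.03 and 1.68% in hot3-2, against 0.101, 0.0542, 0.139 and 0.0797% in WT. In P they were 0.115, 0.121, 0.178 and 0.188% in hot3-2, against 0.0100, 0.0172, 0.0120 and 0.0199% in WT. No hot3-2 library overlapped a WT library of its fraction. By edgeR's quasi-likelihood test with the D-site reads as library size, the log2 fold change at +17 was 3.77 ± 0.213 in total (SE, Benjamini-Hochberg adjusted p = 3.27e-08), 4.03 ± 0.341 in NP (adjusted p = 3.35e-07) and 3.35 ± 0.256 in P (adjusted p = 2.74e-15).

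The other positions were rarer but moved in the same direction. At +16, next in abundance, tailed reads in the total extract were 0.0788, 0.0656, 0.124 and 0.113% of the D-site reads in hot3-2, against 0.00583, 0.00477, 0.00719 and 0.00755% in WT, with a log2 fold change of 3.91 ± 0.249. At +20, the G just before A2, they were 0.0416, 0.0316, 0.0863 and 0.0758% in hot3-2, against 0.00249, 0.00214, 0.00477 and 0.00404% in WT. This was the position with the highest fitted fold change in each fraction, 4.14 ± 0.397 in total, 4.15 ± 0.448 in NP and 3.66 ± 0.303 in P on the log2 scale. At +14, the first A and the nearest to A1, the fitted fold change was the lowest, 2.92 ± 0.223 in total, 3.46 ± 0.320 in NP and 2.44 ± 0.370 in P. The order of the positions within a fraction was not tested. At +15, inside the run of A, the mean in the total extract was 0.0431% ± 0.0113 in hot3-2 and 0.00377% ± 0.00107 in WT. At +18, the C, it was 0.00539% ± 0.00167 in hot3-2 and 0.000530% ± 0.000216 in WT, and at +19 it was 0.0124% ± 0.00346 in hot3-2 and 0.00102% ± 0.000205 in WT.

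**Figure D3:**
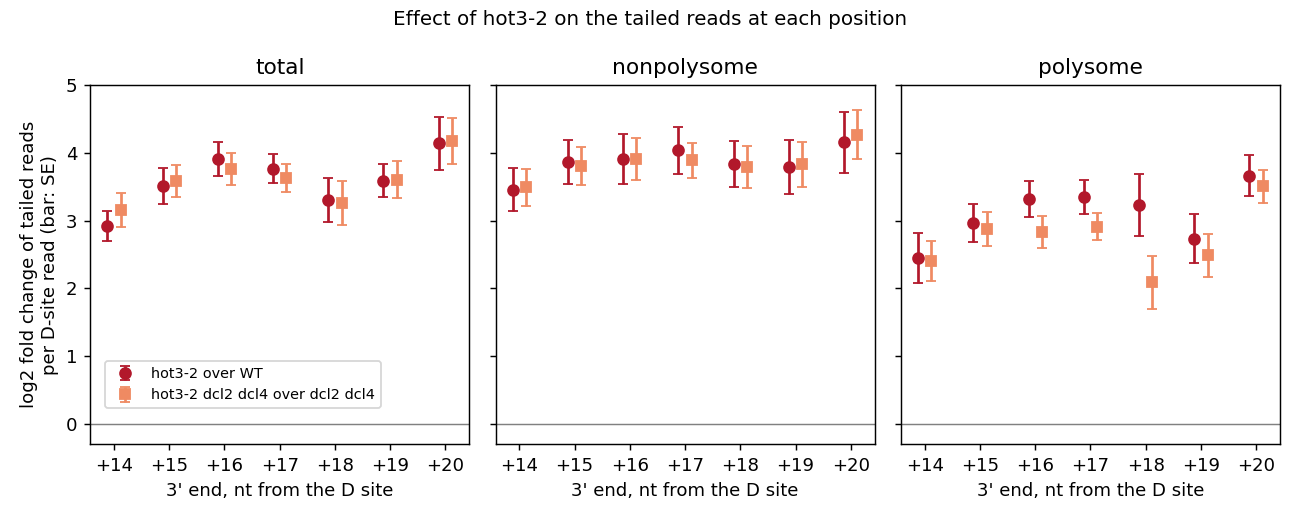
Log2 fold change (y axis, bars are SE) of tailed reads per D-site read at each position from +14 to +20 (x axis), in each fraction, for the effect of hot3-2 with DCL2 and DCL4 intact and without them. All values lie above 2, and the median over the 7 positions was 3.59 in total, 3.86 in NP and 3.22 in P with DCL2 and DCL4 intact.

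Counted over positions, 7 of 7 were higher in hot3-2 in each fraction. This has to be read against the whole table, in which most position classes were higher too: 84.7% of the 59 classes in total, 89.8% in NP and 76.3% in P. Libraries did not overlap at 7 of 7 positions, against 79.7, 89.8 and 74.6% of all classes. The median log2 fold change over the members was 3.59 in total, 3.86 in NP and 3.22 in P, beside 2.92, 3.21 and 2.24 over all classes. Not every member reached the minimum of 10 reads in the lower group. It was reached in every library by 6 of 7 positions in WT total, 7 of 7 in WT NP and 5 of 7 in WT P, where +18 had 1 to 9 reads and +14 had 6 to 21, whereas +17 had 285 to 633.

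These folds are relative to mature 18S rRNA. With TMM scaling, which centres the bulk of the classes, the median over all classes moved by -2.46 on the log2 scale in total, -2.84 in NP and -2.08 in P. The split of higher and lower calls over all classes was then 30 and 23 in total, 30 and 23 in NP, and 26 and 20 in P, beside 50 and 1, 53 and 0, and 45 and 0 with the D-site reads. The members' median remained above 0, at 1.13, 0.99 and 1.14, and 7, 7 and 5 of the 7 positions were called higher. The positions not called in P were +14 (0.39, adjusted p = 0.136 with edgeR) and +19 (0.67, adjusted p = 0.0536).

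Neighbouring ends gave ratios of the same order. Untailed ends at the same 7 positions were 0.820% ± 0.0786 of the D-site reads in hot3-2 and 0.114% ± 0.00452 in WT in the total extract, a ratio of 7.22, and the ratio was 9.75 in NP and 5.18 in P. Tailed A1 ends (+8 to +13) had ratios of 16.98, 17.2 and 21.7 in total, NP and P. Tailed ends at A2 and downstream (+21 to +24) had ratios of 19.8, 20.5 and 13.8. Differences between these regions in their ratios were not tested.

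The combinations of position and tail length with the largest fold changes were not those with the most reads. In the total extract they were +20 with 4 nt (log2 4.63 ± 0.492, adjusted p = 5.38e-06), +16 with 7 nt (4.61 ± 0.542, 1.12e-05) and +20 with 3 nt (4.55 ± 0.391, 1.02e-06). In NP they were +19 with 6 nt (5.40 ± 0.898), +14 with 4 nt (5.14 ± 0.682) and +18 with 3 nt (4.63 ± 0.620). In P they were +20 with 4 nt (4.49 ± 0.520), +17 with 7 nt (4.42 ± 0.509) and +20 with 5 nt (4.34 ± 0.541). Of the 70 combinations, 49 in total, 59 in NP and 38 in P had enough reads for the edgeR test. The hot3-2 libraries alone could meet that minimum. In WT NP all tail lengths together held 39 to 72 reads a library at +19 and 32 to 49 at +14. At +18 they held 17 to 40 reads, and in WT P they held 16 to 49 at +20. At +17 in WT P they held 285 to 633 reads, of which a mean of 89.8% had tails of 1 to 4 nt. In WT total they held 69 to 162 reads at +20 and 154 to 303 at +16. A single length holds only a part of these. The sizes of the fold changes named in each fraction therefore rest on few WT reads. Over the whole table of combinations, members or not, 87.3% of those tested were called in total, 89.7% in NP and 81.8% in P.

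The same comparison was made without DCL2 and DCL4. The sums in hot3-2 dcl2 dcl4 lay near those in hot3-2 and far above those in dcl2 dcl4. In the total extract the sum was 0.551, 0.504, 0.859 and 0.905% of the D-site reads in hot3-2 dcl2 dcl4, against 0.0491, 0.0485, 0.0632 and 0.0612% in dcl2 dcl4. In NP it was 1.83, 1.19, 2.77 and 1.90% in hot3-2 dcl2 dcl4, against 0.124, 0.0982, 0.162 and 0.130% in dcl2 dcl4. In P it was 0.119, 0.133, 0.181 and 0.210% in hot3-2 dcl2 dcl4, against 0.0202, 0.0228, 0.0212 and 0.0215% in dcl2 dcl4. The genotypes did not overlap in any fraction, and the ratios of means were 12.7, 15.0 and 7.51. Within replicates 1 and 2, and within replicates 3 and 4, the log2 ratio of hot3-2 dcl2 dcl4 over dcl2 dcl4 was 3.43 and 3.83 in total, 3.77 and 3.997 in NP, and 2.55 and 3.196 in P.

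At +17 the log2 fold change of hot3-2 dcl2 dcl4 over dcl2 dcl4 was 3.63 ± 0.207 in total (edgeR, adjusted p = 1.68e-08), 3.89 ± 0.256 in NP (3.94e-08) and 2.91 ± 0.199 in P (8.10e-10). All 7 positions were higher in each fraction, beside 79.7, 88.1 and 79.7% of all classes. The lowest was +18 in P, at 2.09 ± 0.393 (adjusted p = 0.000117), where the dcl2 dcl4 libraries held 5 to 11 reads. The members' median was 3.60, 3.83 and 2.83, beside 2.91, 3.03 and 2.09 over all classes. TMM moved the medians of all classes by -2.36, -2.56 and -1.80, left the members' medians at 1.23, 1.23 and 0.98 with 7, 7 and 4 of the 7 positions called higher, and gave splits of 33 and 24, 31 and 23, and 26 and 23 calls over all classes, beside 47 and 0, 52 and 0, and 47 and 0.

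Set directly against hot3-2, hot3-2 dcl2 dcl4 was not called different at any position by edgeR, with 0 of 7 also at an unadjusted p under 0.05, and with 0, 0 and 3.39% of all classes called in total, NP and P. The log2 fold changes ran from -0.17 to 0.09 in total, -0.13 to 0.09 in NP and -0.43 to -0.11 in P, and at +17 they were -0.16 ± 0.242, -0.13 ± 0.281 and -0.36 ± 0.218. Same-numbered libraries of these genotypes deviated together, and with the number as a block 2 positions were lower in hot3-2 dcl2 dcl4 in the total extract. They were +16 (-0.17 ± 0.0324, adjusted p = 0.00441) and +17 (-0.16 ± 0.0356, 0.00752). The same positions were lower in P with the block, +16 by -0.33 ± 0.0502 (0.00678) and +17 by -0.36 ± 0.0340 (0.00293), and none in NP. The share of all classes called with the block is not given here, for these calls or for the later ones. No call with the block is therefore read as particular to these members.

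Fold changes between dcl2 dcl4 and WT, both with few tailed ends, were small. The edgeR test called 0 of 7 positions in total, 0 of 7 in NP and 0 of 6 in P, with 0 also at an unadjusted p under 0.05, and 0% of all classes in each. At +17 the log2 fold change of dcl2 dcl4 over WT was -0.02 ± 0.130 in total, 0.02 ± 0.281 in NP and 0.08 ± 0.242 in P. The test of the difference itself, the hot3-2 effect with minus without dcl2 dcl4, called 0 of 7 positions in each fraction with edgeR, also at an unadjusted p under 0.05, and 0% of all classes. Its values ran from -0.15 to 0.23 in total, -0.15 to 0.11 in NP and -1.13 to -0.04 in P.

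The distribution between fractions was then compared. Tailed ends were more abundant in NP than in P relative to the D-site reads of the same fraction, in all 4 genotypes. The ratio of the mean sums, NP over P, was 10.096 in hot3-2, 11.9 in hot3-2 dcl2 dcl4, 5.998 in dcl2 dcl4 and 6.22 in WT. The WT value depended on the libraries used: its log2 ratio was 2.64 with all 4 numbers, 3.40 with replicates 1 and 3 alone and 1.84 with replicates 2 and 4 alone, beside 3.34 in hot3-2 with all 4, so that no order of the genotypes is read from these ratios. At +17 the log2 fold change was 3.35 ± 0.268 in hot3-2 (edgeR, adjusted p = 2.35e-07), 3.58 ± 0.275 in hot3-2 dcl2 dcl4 (4.20e-07), 2.59 ± 0.196 in dcl2 dcl4 (1.86e-16) and 2.66 ± 0.338 in WT (1.73e-08). All 7 positions were higher in NP in each genotype, where 94.9, 94.9, 91.5 and 86.4% of all classes were. The members' median was 3.32, 3.56, 2.54 and 2.51, beside 2.62, 2.78, 2.03 and 1.96 over all classes, in the same order of genotypes.

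Under TMM the NP to P medians of all classes moved by -2.41, -2.47, -2.001 and -1.96 in hot3-2, hot3-2 dcl2 dcl4, dcl2 dcl4 and WT, and those of the members were 0.86, 1.08, 0.52 and 0.56. The calls were then 7, 7, 4 and 4 of 7, and the splits over all classes 24 and 23, 30 and 24, 20 and 21, and 16 and 20, beside 56 and 0, 56 and 0, 54 and 0, and 51 and 0. Untailed ends at the same positions also stood higher in NP, with ratios of 8.65, 9.94, 5.30 and 4.59.

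Whether the hot3-2 effect was larger in NP than in P was tested as a difference of effects over 16 libraries. With DCL2 and DCL4 intact the difference (NP minus P) was 0.50 to 1.07 on the log2 scale over the 7 positions, and none passed the adjusted threshold with edgeR, while 2 had an unadjusted p under 0.05, beside 13.6% of all classes called. Without DCL2 and DCL4 it passed at 5 of 7 positions, beside 42.4% of all classes. It was 1.08 ± 0.398 at +14 (adjusted p = 0.0387), 1.08 ± 0.407 at +16 (0.0409), 0.98 ± 0.304 at +17 (0.0215), 1.70 ± 0.502 at +18 (0.0212) and 1.34 ± 0.483 at +19 (0.0370), and the values at +15 and +20 were 0.92 (0.0633) and 0.76 (0.155). With all counted reads in place of the D-site reads as library size 1 position was called. Whether the backgrounds differ in this was not tested.

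The tailed share asks another question, namely which portion of the reads counted at a position had a tail. It does not depend on the level of mature 18S rRNA. At +17 most ends were tailed, in all 48 libraries more than at any other of these positions. Tailed reads were 75.6, 73.3, 78.6 and 77.8% of all ends at +17 in hot3-2 total, against 64.8, 66.0, 68.2 and 69.2% in WT total. In NP they were 76.3, 74.3, 79.0 and 79.2% in hot3-2, against 69.3, 68.1, 70.8 and 71.5% in WT. The hot3-2 libraries lay above the WT libraries in both fractions. The lowest share was at +18 in 40 libraries and at +14 in 8.

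**Figure D4:**
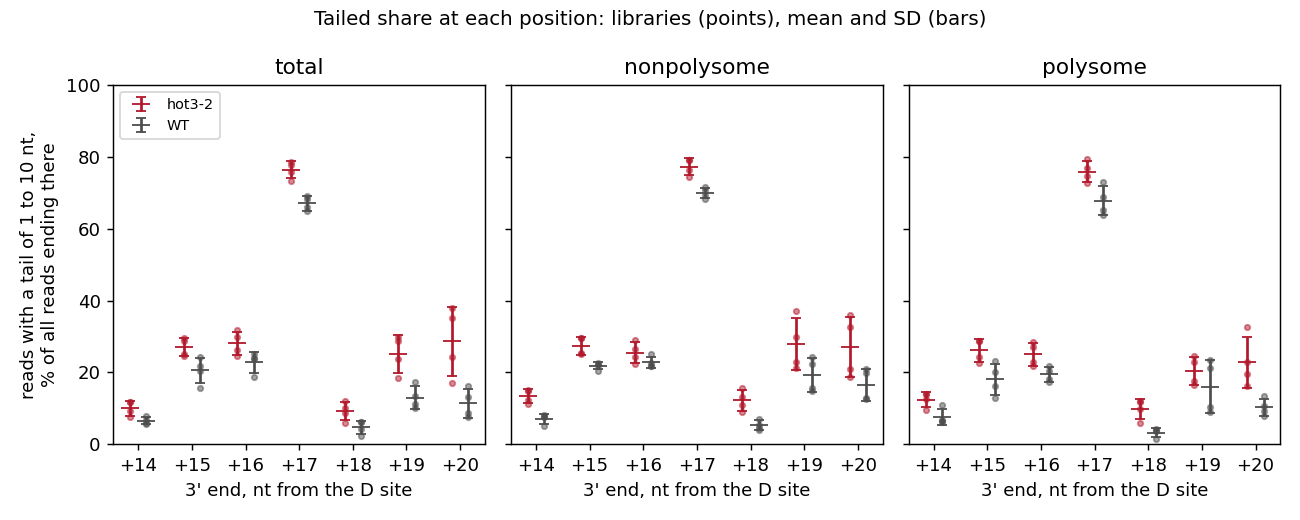
Tailed share (y axis, % of all reads ending at the position) at +14 to +20 (x axis) in hot3-2 and WT, by fraction, with each library as a point and the mean and SD as bars. The share peaks at +17 in both genotypes, at 76.3% in hot3-2 and 67.1% in WT in the total extract, and hot3-2 has the higher mean at every position.

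Over the 7 positions together the share in the total extract was 48.0% ± 5.04 in hot3-2 and 33.2% ± 3.26 in WT (SD, n = 4 each). It was 50.2% ± 4.53 in hot3-2 and 38.3% ± 3.03 in WT in NP, and 46.6% ± 5.26 in hot3-2 and 31.6% ± 3.65 in WT in P. The libraries did not overlap in any fraction. Within replicates 1 and 2 and within replicates 3 and 4 the difference was 13.6 and 16.1 percentage points in total, 10.7 and 13.02 in NP, and 14.04 and 15.9 in P.

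By limma on the log2 odds of a tail, 6 positions in total, 4 in NP and 6 in P had a higher share in hot3-2, beside 70, 43.3 and 66.7% of all 30 positions. At +17 the log2 odds ratio was 0.67 ± 0.130 in total (adjusted p = 0.00274), 0.55 ± 0.130 in NP (0.00703) and 0.59 in P (0.0172). At +18 it was 1.05 ± 0.337 in total (0.0212), 1.29 ± 0.245 in NP (0.00355) and 1.57 in P (0.00207), on a share of 9.24% ± 2.50 in hot3-2 and 4.71% ± 1.77 in WT in the total extract. The position not called in total was +16, at 0.40 (0.0550), on 28.1% ± 3.23 in hot3-2 and 22.8% ± 2.87 in WT, and with the replicate number as a block, which pairs these libraries, it was called (adjusted p = 0.00602). In NP, +16, +19 and +20 were not called. With the block, +19 and +20 were called there too (adjusted p = 0.00387 and 0.00193). The numbers were not taken to pair the NP libraries, but that was judged on levels and not on shares. In P the exception was +19.

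The count rested on single libraries. In total it was 3 of 7 without hot3-2 total replicate 3, and 3 of 7 without hot3-2 total replicate 4. In P it was 3 of 7 without hot3-2 P replicate 3 and 3 of 7 without WT P replicate 1.

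The share at +20 varied widely between the hot3-2 libraries. It was 24.3, 17.1, 37.9 and 35.1% in hot3-2 total, against 8.75, 7.50, 16.3 and 13.2% in WT total, and 20.95, 18.8, 32.7 and 35.8% in hot3-2 NP, against 12.7, 12.8, 19.9 and 20.9% in WT NP. In total the genotypes were apart, by less than a percentage point between the lowest hot3-2 and the highest WT library, and in NP they overlapped. Replicates 3 and 4 were the high ones in each of these groups. The log2 odds ratio was 1.64 ± 0.397 in total (limma, adjusted p = 0.00795) and 0.89 in NP (0.0509).

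Without DCL2 and DCL4 the share over the members was 44.9% ± 4.86 in hot3-2 dcl2 dcl4 and 31.5% ± 3.65 in dcl2 dcl4 in total. It was 47.1% ± 4.54 in hot3-2 dcl2 dcl4 and 33.3% ± 3.72 in dcl2 dcl4 in NP, and 42.8% ± 5.25 in hot3-2 dcl2 dcl4 and 31.0% ± 2.91 in dcl2 dcl4 in P. It was called higher at 6, 6 and 4 positions in total, NP and P by limma, beside 63.3, 56.7 and 53.3% of all positions. In P, +14, +15, +17 and +20 were called, and the count was 2 without hot3-2 dcl2 dcl4 P replicate 4. The position not called in total and NP was +16 in both (adjusted p = 0.0968 and 0.203), and it was called with the replicate block, which pairs these libraries (0.0217 and 0.0120).

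The mean share in hot3-2 dcl2 dcl4 lay below that in hot3-2, by 3.03 to 3.80 percentage points within either set of replicate numbers. limma called none of the 7 positions in any fraction, also at an unadjusted p under 0.05, and 0% of all positions. With the replicate block, which pairs these libraries, the share was lower in hot3-2 dcl2 dcl4 at +19 and +20 in total (log2 odds ratios -0.23 and -0.29, adjusted p = 0.00945 and 0.0286). It was also lower at +14 in NP (-0.26, 0.0360), and at +17, +19 and +20 in P (-0.20, -0.21 and -0.27, with 0.0492, 0.0492 and 0.0488). dcl2 dcl4 against WT gave no call in total, NP or P, beside 0, 3.33 and 0% of all positions and 0, 2 and 1 members at an unadjusted p under 0.05. The block, which pairs total and NP here, gave a lower share in dcl2 dcl4 at +19 and +20 in NP (-0.60 and -0.67, adjusted p = 0.0245 and 0.00297).

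The share was also compared between fractions. It was 50.2% ± 4.53 in NP and 46.6% ± 5.26 in P in hot3-2, with overlapping libraries, and 38.3% ± 3.03 in NP and 31.6% ± 3.65 in P in WT, where the libraries did not overlap. limma called no position in hot3-2, hot3-2 dcl2 dcl4, dcl2 dcl4 or WT, beside 40, 46.7, 40 and 26.7% of all positions and 0, 1, 1 and 1 members at an unadjusted p under 0.05. The replicate block, taken to pair the fractions in both hot3-2 genotypes, gave a higher share in NP at +18 and +19 in hot3-2 (limma, adjusted p = 0.0313 and 0.00576). In hot3-2 dcl2 dcl4 it did so at +17, +19 and +20 (0.0430, 0.00679 and 0.0305). The pairing was less clear there: 0 of 4 NP libraries correlated best with the P library of their own number (r 0.242 to 0.513), beside 4 in hot3-2. In WT, 1 position was called without WT NP replicate 1, WT NP replicate 2 or WT P replicate 4. In hot3-2 dcl2 dcl4, 1 was called without NP replicate 2, and in dcl2 dcl4, 1 without P replicate 4.

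The form of the tail length distribution varied with the position. At +17 the classes of 1, 2, 3 and 4 nt held nearly equal parts of the tailed reads in hot3-2 NP, with 22.5, 23.0, 23.4 and 21.3%, and declining parts in WT NP, with 28.8, 24.7, 20.8 and 15.3%. Past 4 nt the distribution broke off, with 1.55% ± 0.139 at 5 nt in hot3-2 NP and 2.05% ± 0.575 in WT NP, a drop from the class of 4 nt of 13.6-fold in hot3-2 NP and 7.70-fold in WT NP. Tails of 10 nt held 4.95% ± 0.989 in hot3-2 NP and 4.47% ± 1.23 in WT NP. At +16 tails of 1 nt alone held 39.8% ± 4.42 in hot3-2 NP and 44.0% ± 2.11 in WT NP, and at +20 the classes fell off gradually, with 19.4% at 1 nt, 11.3% at 4 nt and 7.12% at 10 nt in hot3-2 NP. At +18 the class of 10 nt was the largest in hot3-2 NP, with 29.5% ± 6.33.

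**Figure D5:**
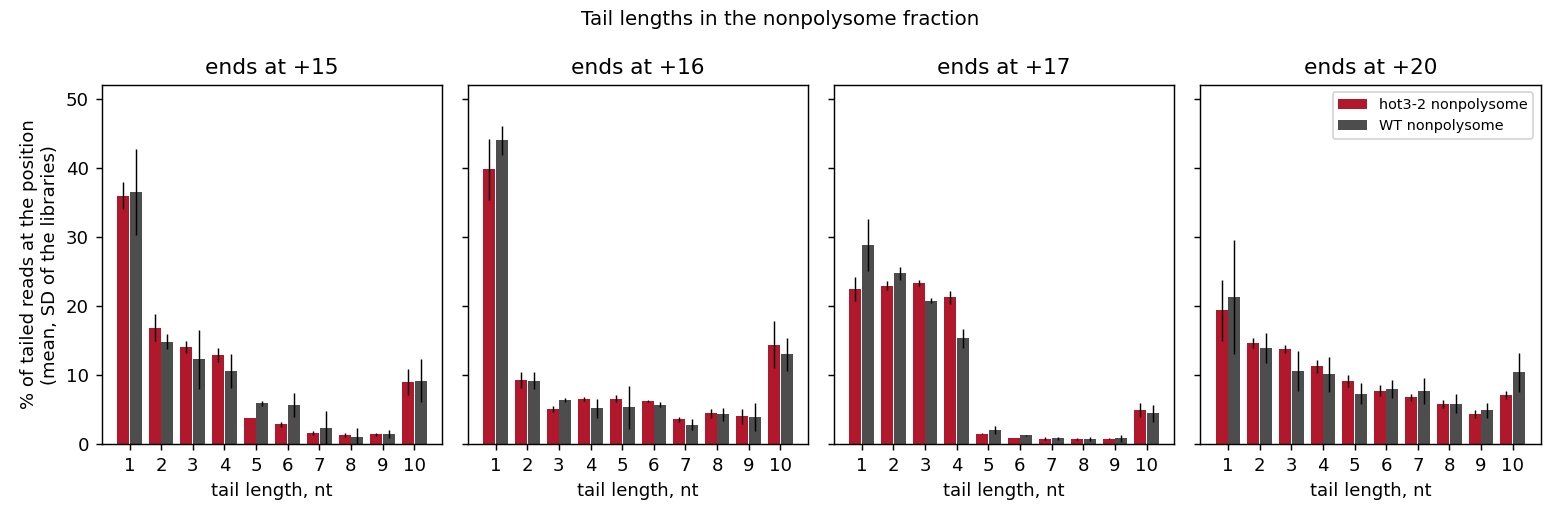
Percentage of the tailed reads at +15, +16, +17 and +20 (y axis, mean and SD of 4 libraries) by tail length (x axis, nt) in hot3-2 NP and WT NP. At +17 tails of 1 to 4 nt hold 90.1% of the tailed reads in hot3-2 and 89.7% in WT and longer ones are few, whereas at +20 the classes decline gradually.

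Read against the printed sequence, the break after 4 nt at +17 falls where a run of A would begin to match ITS1 better than not. With 1 point for each match and -1 for each mismatch, a tail of A alone set against the bases that follow +17 first scores above 0 at 5 nt, and at +12, where the score turns at 3 nt, the steepest drop was also at 3 nt, 25.9-fold in hot3-2 NP. At +11 both were at 5 nt, with a drop of 6.37-fold. This match was noticed after the values were seen, the composition of the tails was not measured here, and its part in the length distribution was not tested. At +14, +15, +16, +18 and +20 the score is first above 0 at 1 nt. The steepest drops in hot3-2 NP were smaller there, from 1.31-fold at +20 to 4.345-fold at +16. The score does not stay above 0 at each of these positions. At +16 it is back at 0 at 2 nt, the length at which the steepest drop lay. At +19 the score turns at 3 nt and the steepest drop was at 5 nt, so that the lengths did not match there.

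At +17 the genotypes lay apart in the class of 4 nt. It held 18.5 to 20.1% of the tailed reads in the hot3-2 libraries and 13.7 to 17.4% in the WT libraries in total. It held 20.3 to 22.3% in hot3-2 and 13.4 to 16.6% in WT in NP, and 18.7 to 21.6% in hot3-2 and 13.3 to 16.2% in WT in P. The ranges did not overlap in any of the 3 fractions, nor between hot3-2 dcl2 dcl4 and dcl2 dcl4, where in NP they were 19.2 to 20.6% in hot3-2 dcl2 dcl4 and 13.6 to 14.8% in dcl2 dcl4. The class of 1 nt held 21.02 to 24.3% in hot3-2 NP and 24.1 to 32.7% in WT NP, with an overlap. These classes were singled out after their values were seen, and the difference was not tested.

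The mean tail length at +17 was 3.23 nt ± 0.177 in hot3-2 and 2.88 nt ± 0.161 in WT in total. It was 3.06 nt ± 0.142 in hot3-2 and 2.85 nt ± 0.199 in WT in NP, and 3.01 nt ± 0.171 in hot3-2 and 2.84 nt ± 0.143 in WT in P. Length was tested where every library had at least 10 tailed reads, which left out +18 in total and +14 and +18 in P. Of the 6, 7 and 5 positions tested in total, NP and P, limma called none between hot3-2 and WT, beside 31, 20 and 12% of all positions in total, NP and P. At an unadjusted p under 0.05 there were 3 positions in total, 1 in NP (+19) and 0 in P. The 3 did not share a direction, since the mean tail in hot3-2 was shorter at +15 (-0.42 nt ± 0.148, adjusted p = 0.0689) and longer at +17 and +19. The difference at +19 was 0.98 nt ± 0.406 (adjusted p = 0.110), and at +17 it was 0.34 nt ± 0.117 (adjusted p = 0.0659). With the replicate block, which pairs the libraries of the total extract, +17 was called (adjusted p = 0.0126). In the fit with no block, 1 position was called on leaving out hot3-2 total replicate 2, hot3-2 total replicate 3, WT total replicate 3 or WT total replicate 4. In NP 1 position was called without hot3-2 NP replicate 2.

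In the dcl2 dcl4 background 7, 7 and 4 positions could be tested in total, NP and P, without +14, +18 and +19 in P, and none was called, beside 16.7, 23.3 and 4.17% of all positions and 0, 2 and 2 members at an unadjusted p under 0.05. In NP these were +14, shorter in hot3-2 dcl2 dcl4 (-0.76 nt), and +19, longer (0.55 nt), and in P they were +17 and +20, both longer. Without dcl2 dcl4 NP replicate 1, 1 position was called in NP. With the block, which pairs total and NP, mean tails were longer in hot3-2 dcl2 dcl4 at +17 and +19 in total (0.21 and 0.66 nt, limma, adjusted p = 0.0254 and 0.0163) and at +17, +18 and +19 in NP (0.27, 0.50 and 0.55 nt, 0.0479 each). limma gave no call for hot3-2 dcl2 dcl4 against hot3-2, with 0, 0 and 1 members at an unadjusted p under 0.05 beside 0, 3.33 and 0% of all positions called, or for dcl2 dcl4 against WT, with 0 in each fraction, where 6, 7 and 4 positions could be tested. Between NP and P, with 7, 7, 4 and 5 positions tested in hot3-2, hot3-2 dcl2 dcl4, dcl2 dcl4 and WT, the single call was +18 in hot3-2 dcl2 dcl4, 1.13 nt ± 0.255 longer in NP (adjusted p = 0.0365), beside 16.7, 13.3, 4.17 and 0% of all positions in hot3-2, hot3-2 dcl2 dcl4, dcl2 dcl4 and WT. It was not called without NP replicate 1, 3 or 4 or P replicate 1, 2 or 3 of that genotype. With the block, taken to pair the fractions of both hot3-2 genotypes, +17, +18, +19 and +20 were called in hot3-2 dcl2 dcl4, and +20 in hot3-2 (0.17 nt, limma, adjusted p = 0.0302). In hot3-2 dcl2 dcl4 these calls rest on a pairing in which 0 NP libraries matched their own number best.

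The single positions on either side of the range had a lower tailed share than the members beside them. In hot3-2 total the tailed share was 1.81% ± 0.234 at +13 and 10.0% ± 2.08 at +14, and 28.6% ± 9.62 at +20 and 2.79% ± 1.13 at +21, the first base of A2. In WT total it was 0.629% ± 0.125 at +13, 6.51% ± 0.998 at +14, 11.4% ± 4.07 at +20 and 1.31% ± 0.278 at +21. The next template base is A after +13 and +21, as it is after +14 and +20. A tail that begins with A can be read as template at each of them, and the part of this in the shares was not tested. In levels the edges were closer, with tailed reads at 0.00870% of the D-site reads at +13 and 0.00770% at +14 in hot3-2 total, and 0.0588% at +20 and 0.0180% at +21. Over whole neighbouring regions the share was not lower throughout. In hot3-2 total it was 27.1% ± 1.49 over A1 (+8 to +13), 48.0% ± 5.04 over +14 to +20 and 60.2% ± 10.3 over A2 and downstream (+21 to +24), and in WT total it was 13.6% ± 0.738, 33.2% ± 3.26 and 34.3% ± 8.39 over the same regions. In hot3-2 NP the members' share of 50.2% ± 4.53 stood beside 65.9% ± 9.66 over A2 and downstream. Differences between the regions in their shares were not tested.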

How the data were processed

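18S-ENDseq counts were analysed for 48 libraries, grouped by the genotype, fraction and replicate number in their titles. The authors circularised RNA, reverse-transcribed it from a primer in 18S rRNA, amplified and sequenced it, trimmed reads (cutadapt 4.2, STAR 2.7.10b per the submitters' processing notes), mapped them to their own 45S rDNA reference and deposited raw counts, not normalized, for each 3′ end position and tail length. Molecules with another 5′ end than that of mature 18S rRNA had been dropped. The aligner sets where template ends and tail begins, and whether the 10 nt class holds longer tails is not given in the sources used here.

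Here untailed D-site reads served as library size. Tailed and untailed reads per position (59 classes, with a minimum of 10 counts in 4 or more libraries) were tested with edgeR 4.0.16 glmQLFTest. The log2 odds of a tail (pseudocount 0.5, 30 positions) and mean tail length (at least 10 tailed reads in every library) were tested with limma 3.58.1 in R 4.3.3, and DESeq2 1.42.0 was an alternative. Only the compared groups entered a fit, p-values were adjusted over all classes by Benjamini-Hochberg, and 0.05 was the threshold. Named combinations were the 3 called ones per hot3-2 and WT comparison with the largest fold change and no overlap of libraries, and the largest class at a position. On data simulated from WT nonpolysome the count fit (59 classes), the odds fit (30) and the length fit (30) each recovered 100% of the changed classes. They called 1.4, 2.55 and 1.64% of the unchanged ones. Only mean values were taken from WT nonpolysome. The spread and the size of the planted change were fixed, and no shift between replicate numbers was built in. The recovery therefore does not show that smaller changes, or changes in libraries of wider spread, would be called. Replicate numbers were taken to pair libraries where each same-numbered pair's deviations from the group means correlated above 0.1. The deviations were those of the levels, and pairing was not judged on shares or tail lengths. That held for hot3-2 and WT in total (r 0.355 to 0.591) and P, but not NP (-0.0856 to 0.442), for 11 of the 16 comparisons in all. The numbers were a shared label only, with no stated batch. The study describes the total and nonpolysome libraries of hot3-2, hot3-2 dcl2 dcl4 and WT as biological replicates. No source used here says whether they came from separate cultures or extractions, so p-values measure the spread between these libraries. Comparisons that share libraries are not independent. Members and comparisons were chosen with earlier results of these data known, and the fits within replicate numbers and without +17 were added after the values were seen.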

Additional observations from a re-analysis of the deposited data

Results flagged for a closer look

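In 120 groups of 4 libraries examined for a library far from its group, 2 had one, where chance alone gives about 1 in 20. Tailed reads at +14 were 0.00274% of the D-site reads in WT nonpolysome replicate 3, above the other 3 libraries of the group. Tailed reads at +18 were 0.000469% in dcl2 dcl4 polysome replicate 1, above the other 3, where the libraries of that group held 5 to 11 such reads.

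In the dcl2 dcl4 background the hot3-2 effect on the level of tailed reads differed between nonpolysome and polysome fractions (edgeR, difference of effects). The difference in log2 fold change was 1.08 at +14, 1.08 at +16, 0.98 at +17, 1.70 at +18 and 1.34 at +19, each larger in the nonpolysome fraction. In the same fit 42.4% of all classes were called, so that the calls are not read as particular to these members. With all counted reads as library size 1 position was called. With DCL2 and DCL4 intact 0 of 7 positions were called.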

How the results depend on the processing

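Of the counts of called positions, 187 of 218 alternatives moved by no more than 1.5 times. A count of 0 in both the main fit and the alternative was scored as unmoved. Such counts were common, so that this number does not measure how stable the calls themselves were. Single positions were followed for the level of tailed reads only, in hot3-2 against WT and between nonpolysome and polysome in hot3-2. There 166 of 168 alternatives kept their call and none reversed, and all 220 fits that left out a library kept theirs. The 2 exceptions were +14 and +19 in hot3-2 against WT polysome under TMM. Shares and tail lengths at single positions are not part of these numbers.

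With TMM 4 of 7 levels were called in hot3-2 dcl2 dcl4 against dcl2 dcl4 polysome, and 4 each between nonpolysome and polysome in dcl2 dcl4 and in WT. The cause was not tested. With all counted reads as library size, 1 difference of effects was called in the dcl2 dcl4 background.

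With the replicate block, 6 of 7 shares were called higher in hot3-2 than in WT nonpolysome, beside 4 without it, the added ones being +19 (log2 odds ratio 0.68, limma, adjusted p = 0.00387) and +20 (0.89, 0.00193), although the numbers were not taken to pair these libraries. With the block 2 levels were lower in hot3-2 dcl2 dcl4 than in hot3-2 in total and 2 in polysome. In shares it called 2, 1 and 3 lower in total, nonpolysome and polysome of that comparison, 2 lower in dcl2 dcl4 against WT nonpolysome, and 2, 3 and 2 between fractions in hot3-2, hot3-2 dcl2 dcl4 and WT. In mean tail length it called 1 in hot3-2 against WT total and 1 in nonpolysome, 2, 3 and 1 in hot3-2 dcl2 dcl4 against dcl2 dcl4 in total, nonpolysome and polysome, and 1 and 4 between fractions in hot3-2 and hot3-2 dcl2 dcl4. The numbers were not taken to pair hot3-2 and WT nonpolysome, hot3-2 dcl2 dcl4 and dcl2 dcl4 polysome, or the WT fractions. There the lowest same-number correlation of levels was below 0.1, while the highest was 0.442, 0.386 and 0.230. Pairing was not judged on shares or tail lengths. In these, replicates 3 and 4 stood above 1 and 2 in 12 and 11 of 12 groups. The block moved no other count by 1.5 times or more. The calls with the block are given without the share of all classes called in the same fit.

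With tails of 1 to 9 nt, mean tail length was called at 2, 1 and 1 positions in hot3-2 against WT (total, nonpolysome, polysome), 2 and 2 in hot3-2 dcl2 dcl4 against dcl2 dcl4 (total, nonpolysome), where each pair of calls was 1 longer and 1 shorter, and 0 and 1 between fractions in hot3-2 dcl2 dcl4 and dcl2 dcl4. Without the filter on low counts it was called at 1 in hot3-2 against WT total. With tails of 2 to 10 nt the share was called at 1 position between fractions in hot3-2 dcl2 dcl4 and 1 in dcl2 dcl4, and with a pseudocount of 5 at 2, both lower, in dcl2 dcl4.

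Leaving out each library gave 3 to 7 and 3 to 6 called shares in hot3-2 against WT total and polysome, 2 to 4 in hot3-2 dcl2 dcl4 against dcl2 dcl4 polysome, and 0 to 1 between fractions in hot3-2 dcl2 dcl4, dcl2 dcl4 and WT. For mean tail length it gave 0 to 1 in hot3-2 against WT total and nonpolysome, hot3-2 dcl2 dcl4 against dcl2 dcl4 nonpolysome, and between fractions in hot3-2 dcl2 dcl4. The log2 ratio of the WT sums, nonpolysome over polysome, moved to 3.40 with replicates 1 and 3 and 1.84 with replicates 2 and 4.

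Depth limits the lowest members: +18 in WT polysome had 1 to 9 reads a library, and tail classes past 4 nt were thinner still.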
